A study of Mus musculus with 8 samples.

Results

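The 10 genes described here are the glucocorticoid receptor, Nr3c1, and 9 genes that glucocorticoids are known to induce: Fkbp5, Tsc22d3, Klf15, Klf9, Zbtb16, Sgk1, Ddit4, Cebpd and Cebpb. They were chosen by symbol, and all 10 were found in the count tables of all 8 libraries, among 21833 gene symbols. All 10 also passed the filter on low counts, which kept 12755 genes. RNA came from the gastrocnemius, a calf muscle, of male C57BL/6J mice aged 12 weeks. Every mouse received 100 µL of serum pooled from arthritic K/BxN mice into the peritoneum on days 0 and 2, which transfers an antibody-driven arthritis. The group called RA had serum alone (n = 4), and the group called RA+Dipy (n = 4) was in addition given dipyridamole every day from day 0 at 25 mg/kg. The muscle was taken on day 16. Dipyridamole blocks the nucleoside transporters that clear adenosine from outside cells, and inhibits phosphodiesterases. The genotype label reads K/BxN for all samples although the design text describes serum recipients, and the treatment protocol names dipyridamole for both groups, so groups follow the sample titles. Muscle without arthritis, circulating corticosterone and the hour of collection were not analysed here.

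Glucocorticoids are adrenal steroid hormones that enter the cell and bind the receptor encoded by Nr3c1, which is held in the cytoplasm by heat shock proteins and co-chaperones. The bound receptor moves to the nucleus and binds DNA as a dimer at a palindrome, the glucocorticoid response element. In skeletal muscle, sustained glucocorticoid signalling is known to slow protein synthesis, speed protein breakdown and shift fuel use toward amino acids and fat, and inflammation can raise the hormone. The induced genes fall into several roles. Fkbp5 is a co-chaperone that lowers the receptor's affinity for hormone and so closes a feedback loop, while Tsc22d3 (GILZ) carries part of the anti-inflammatory action. Klf15, Klf9, Zbtb16, Cebpd and Cebpb encode transcription factors, and Sgk1 and Ddit4 act in kinase signalling that controls growth.

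Promoter sequences are shown for 3 of the genes, since the receptor acts through a defined DNA motif. RefSeq windows of 300 bases (250 before and 50 after an annotated start, GRCm38.p6) were found for 7 of the 10 genes, 14 windows in all, 6 of them for Sgk1. No window was used for Nr3c1, Zbtb16 or Cebpd. The full element is the hexamer AGAACA, any 3 bases and the hexamer's reverse complement, so that it reads the same on both strands. It stood in 1 of the 14 windows, a start of Sgk1, and in 0.00913% of all 32851 windows. The hexamer AGAACA alone, sought on both strands, stood in windows of Sgk1 and Tsc22d3 and in 19.0% of all windows, and each full element holds it on both strands. The shorter core ACANNNTGT, which lies inside the full element, was found in 2 windows of Sgk1 and in 6.85% of all windows. The cyclic AMP response element TGACGTCA was found in 0 of the 14 windows and in 1.79% of all. Below, capitals mark the hexamer or the full element. The Sgk1 window is shown for its full element and the Tsc22d3 window for its single hexamer. The Fkbp5 window is shown because Fkbp5 had the largest fold change between groups among the 10 genes in 6 of the libraries. That change did not pass the threshold (edgeR adjusted p = 0.418).
Sgk1 chr10:21993640-21993939 (+ strand): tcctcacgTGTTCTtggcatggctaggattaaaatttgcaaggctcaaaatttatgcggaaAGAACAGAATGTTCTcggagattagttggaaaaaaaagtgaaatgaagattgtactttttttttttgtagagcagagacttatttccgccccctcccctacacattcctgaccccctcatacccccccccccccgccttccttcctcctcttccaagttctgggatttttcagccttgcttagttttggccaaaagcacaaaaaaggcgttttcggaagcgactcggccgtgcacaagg
Tsc22d3 chrX:140600473-140600772 (- strand): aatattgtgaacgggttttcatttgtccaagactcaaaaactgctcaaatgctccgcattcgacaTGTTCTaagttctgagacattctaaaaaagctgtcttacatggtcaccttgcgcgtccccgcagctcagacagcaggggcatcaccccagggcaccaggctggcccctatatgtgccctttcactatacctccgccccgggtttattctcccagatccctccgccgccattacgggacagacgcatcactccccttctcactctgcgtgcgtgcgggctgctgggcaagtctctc
Fkbp5 chr17:28486100-28486399 (- strand): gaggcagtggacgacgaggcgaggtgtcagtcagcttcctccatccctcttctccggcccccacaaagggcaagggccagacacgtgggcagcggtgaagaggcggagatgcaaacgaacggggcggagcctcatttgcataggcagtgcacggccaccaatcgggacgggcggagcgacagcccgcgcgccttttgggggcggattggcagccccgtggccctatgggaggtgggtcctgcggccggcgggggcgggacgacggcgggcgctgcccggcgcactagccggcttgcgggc
In the Sgk1 window the full element begins 189 bases before the start site. A match is a description of the letters, and its absence says only that they are not in these windows.

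Library totals ran from 16405268 to 50647761 counts. Levels are given as CPM, the usual count relative to library size, with library sizes scaled by TMM factors. At 3 counts, the upper limit for a gene with no reads, this is 0.0591 to 0.254 CPM. RA replicate 4 and RA+Dipy replicate 1 stood apart. Over 4757 genes with a mean of at least 20 CPM, the SD of their log2 deviations from the median library was 1.20 and 0.81, against 0.17 to 0.35 in the other 6. Fold changes of the 10 genes, of the related lists and of the other genes named are therefore given with and without them, the latter called the 6-library value. Muscle markers summed to 166674 to 229228 CPM in RA and 170035 to 191030 CPM in RA+Dipy. This sum hides opposite shifts in RA replicate 4 and RA+Dipy replicate 1. Atp2a1 stood there at 8217 and 2117 CPM, against 17760 to 21923 CPM elsewhere. Pvalb stood there at 64431 and 46679 CPM, against 11540 to 21475 CPM elsewhere. The neutrophil list (0.641 to 2.79 and 1.33 to 3.83 CPM) and the T cell list (1.56 to 3.55 and 1.32 to 2.50 CPM) were near 0. The design text gives 4 mice a group, so p-values cover the spread between these 8 mice.

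None of the 10 genes differed between RA+Dipy and RA muscle beyond the spread between mice. By edgeR's quasi-likelihood test 0 of 10 passed an adjusted p of 0.05, as did 0% of all 12755 genes tested. At an unadjusted p under 0.05 there were also 0 of 10, against 3.83% of all genes (1.68% higher and 2.15% lower), and DESeq2 and limma-voom called 0 of 10 as well. With library weights limma-voom called 0 of 10, against 0.87% of all genes higher and 0.172% lower. By the edgeR fit 6 of the 10 were higher in RA+Dipy and 4 lower, where 47.8% of all genes were lower. Their median log2 fold change (RA+Dipy over RA) was 0.08, beside 0.02 for all genes. In 0 of the 10 genes did the values of the groups fail to overlap, which 2.72% of all genes did. Without the 2 libraries that stood apart the median was −0.17, beside 0.01 for all genes, and 9 of 10 were lower, beside 48.7% of all genes. Of the 9, Zbtb16 (−0.00057) and Klf9 (−0.05) were near 0. The 9 genes are not separate observations, since the same 6 mice gave all of them. Pearson's r between pairs of the 10 there ran from −0.63 (Klf9 and Ddit4) to 0.96 (Tsc22d3 and Klf15).

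**Figure D1:**
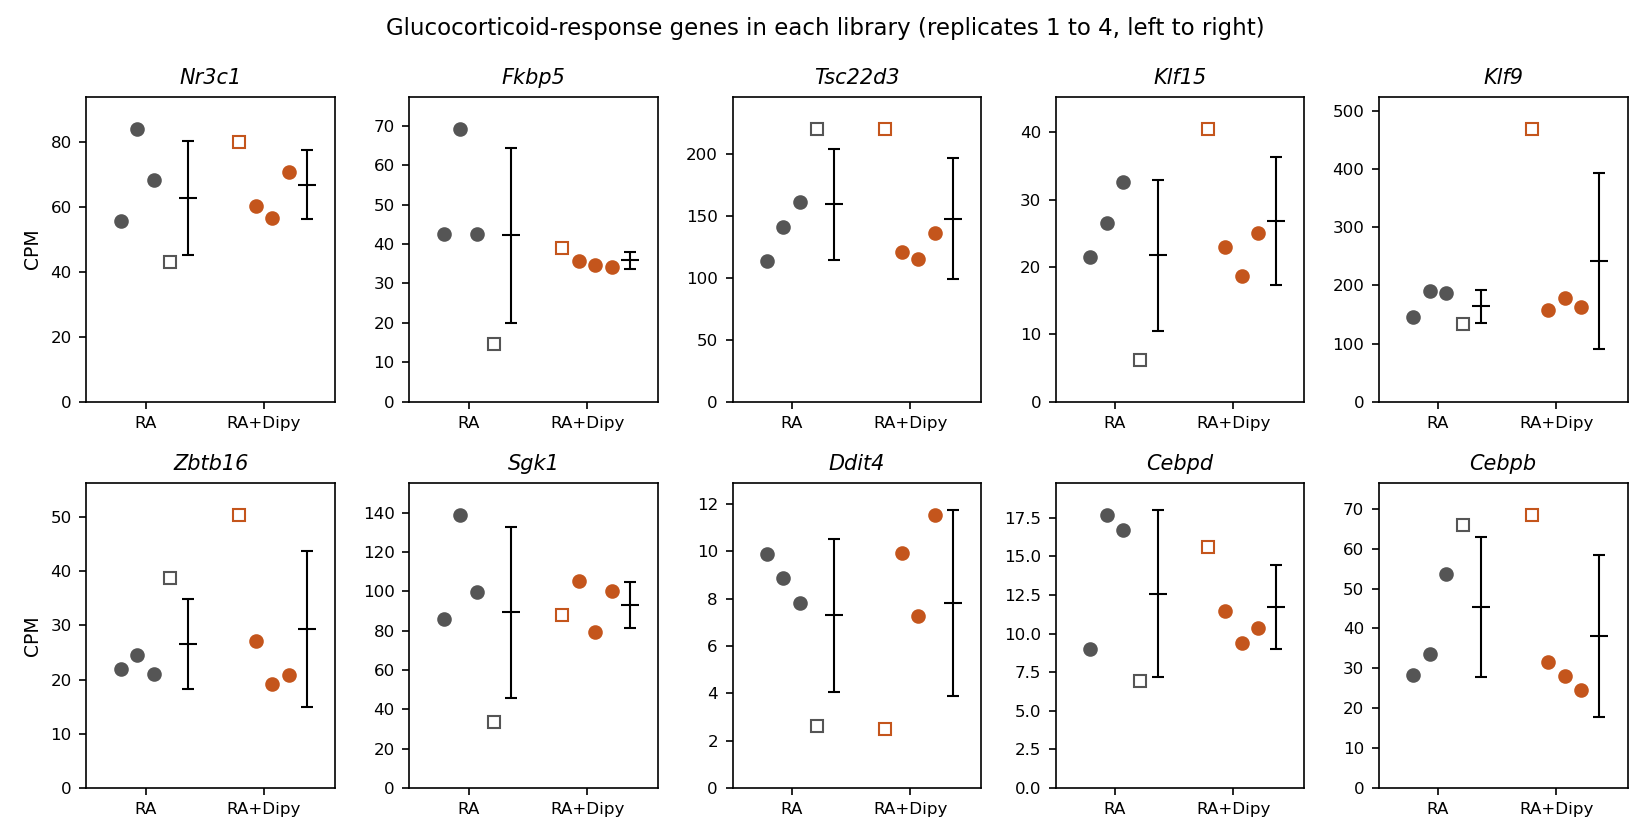
Level of each of the 10 genes (CPM, linear axis from 0) in the 8 libraries, with replicates 1 to 4 of each group from left to right; open squares are RA replicate 4 and RA+Dipy replicate 1, and black bars give the group mean ± SD (n = 4). The 2 groups overlap for all 10 genes, and the open squares are often the extremes, as for Klf9 at 469 CPM and Klf15 at 6.25 CPM.

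The receptor gene itself was at a like level in both groups. Nr3c1 stood at 55.5, 83.9, 68.3 and 42.8 CPM in RA replicates 1 to 4 and at 79.8, 60.2, 56.5 and 70.7 CPM in RA+Dipy replicates 1 to 4. All 4 RA+Dipy values lay inside the range of the RA values. The means were 62.6 ± 17.6 and 66.8 ± 10.6 CPM (SD, n = 4 each), with a log2 fold change of 0.09 (SE 0.26; edgeR adjusted p = 0.942). The 95% interval ran from −0.49 to 0.68. Without the 2 libraries the value was −0.14, with an interval of −0.52 to 0.25, and without RA replicate 4 alone it was −0.033. The gene lies on chromosome 18 from 39410545 to 39519421 (GRCm38, minus strand) and shares no exon bases with another annotated gene.

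Fkbp5, the feedback co-chaperone, showed the most even levels under dipyridamole and uneven levels without it. It stood at 42.4, 69.1, 42.6 and 14.5 CPM in RA replicates 1 to 4. In RA+Dipy replicates 1 to 4 it stood at 38.9, 35.6, 34.8 and 34.2 CPM. RA replicate 2 was the highest of all 8 libraries and RA replicate 4 the lowest, so that all RA+Dipy values lay between them. The coefficient of variation (SD over mean) was 0.529 in RA and 0.0586 in RA+Dipy. Over all genes tested its median was 0.334 in RA and 0.256 in RA+Dipy, and 62.6% of genes varied more in RA. The difference in spread was not tested. Group means were 42.2 ± 22.3 and 35.9 ± 2.10 CPM (log2 fold change −0.24, SE 0.39; 95% interval −1.10 to 0.63; edgeR adjusted p = 0.898).

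Without the 2 libraries that stood apart, Fkbp5 was the 1 gene of the 10 whose groups did not overlap. The remaining RA mice (42.4, 69.1 and 42.6 CPM) then lay above the remaining RA+Dipy mice (35.6, 34.8 and 34.2 CPM). In these 6 libraries 6.23% of all genes were lower and 7.9% higher without overlap. The log2 fold change was −0.55 (SE 0.19; 95% interval −0.99 to −0.12), with an unadjusted p of 0.0180 in edgeR, where 11.4% of all genes were under 0.05, and 5.45% were so with a lower level. The adjusted p was 0.418, and over all 16 alternatives it ran from 0.170 to 0.998. Without RA replicate 2 alone the value was 0.11, and without RA replicate 4 alone −0.50. Fkbp5 lies on chromosome 17 from 28399094 to 28517527 (GRCm38, minus strand).

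Tsc22d3, a leucine zipper protein that restrains inflammatory transcription factors, was high in both libraries that stood apart. It measured 114, 141, 161 and 219.8 CPM in RA replicates 1 to 4 and 219.7, 121, 115 and 136 CPM in RA+Dipy replicates 1 to 4. RA replicate 4 and RA+Dipy replicate 1 were almost equal and the 2 highest. The means were 159 ± 44.9 and 148 ± 48.8 CPM, with a log2 fold change of −0.11 (SE 0.31; 95% interval −0.79 to 0.58; edgeR adjusted p = 0.943). The value was −0.16 in the 6 other libraries and turned to 0.11 without RA replicate 4. Its hexamer, shown above, lies in a window at 1 of its 3 starts used here.

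Among the transcription factors, Klf15 drives breakdown of branched-chain amino acids and is a direct receptor target in muscle. It stood at 21.5, 26.5, 32.6 and 6.25 CPM in RA replicates 1 to 4 and at 40.5, 23.0, 18.7 and 25.0 CPM in RA+Dipy replicates 1 to 4. Its lowest and highest values were the 2 libraries that stood apart, 6.47-fold from each other, while the other 6 spanned 1.74-fold. Its log2 fold change was 0.30 (SE 0.45; 95% interval −0.69 to 1.29) with all libraries and −0.26 (−0.66 to 0.14) without those 2, so its direction rests on them. Adjusted p-values in edgeR were 0.893 and 0.530.

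Klf9, a related zinc finger factor that also follows thyroid hormone and the daily clock, had the widest gap in mean level. RA replicates 1 to 4 measured 145, 190.4, 187 and 134 CPM. RA+Dipy replicate 1 measured 469 CPM, from 7105 counts, and replicates 2 to 4 measured 158, 179 and 164 CPM. A single library thus carried the difference: the log2 fold change was 0.56 (SE 0.39; 95% interval −0.30 to 1.42; edgeR adjusted p = 0.882) and 0.02 without that library. Without both libraries it was −0.05, with an interval of −0.39 to 0.29.

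Zbtb16 (PLZF), a zinc finger factor strongly induced by steroid hormone in many cells, had the same pair of high libraries. It measured 21.9, 24.6, 21.1 and 38.8 CPM in RA and 50.3, 27.2, 19.1 and 20.9 CPM in RA+Dipy, replicates 1 to 4 in order. The other 6 libraries lay within 1.42-fold of each other. Its log2 fold change was 0.14 (SE 0.35; edgeR adjusted p = 0.931), and without the 2 libraries the group means were 22.5 ± 1.83 and 22.4 ± 4.24 CPM (n = 3 each). The 95% interval was then −0.35 to 0.35, and without RA+Dipy replicate 1 alone the log2 fold change was −0.24.

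The 2 C/EBP factors, Cebpd and Cebpb, are early targets of glucocorticoids and of cytokines such as interleukin-6. Cebpd stood at 9.0, 17.7, 16.7 and 6.93 CPM in RA replicates 1 to 4, and at 15.6, 11.4, 9.39 and 10.4 CPM in RA+Dipy replicates 1 to 4. RA values lay at both ends, with RA+Dipy values between them. The log2 fold change was −0.11 (SE 0.34; 95% interval −0.86 to 0.64; edgeR adjusted p = 0.947), and −0.46 (−0.99 to 0.07) in the 6 libraries. Without RA replicate 2 it was 0.10, and without RA replicate 3 it was 0.05.

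Cebpb stood at 28.3, 33.5, 53.6 and 65.9 CPM in RA replicates 1 to 4. In RA+Dipy it stood at 68.4 CPM in replicate 1 and at 31.6, 28.2 and 24.6 CPM in replicates 2 to 4. The 2 libraries that stood apart were again its highest. The log2 fold change was −0.25 (SE 0.39; 95% interval −1.13 to 0.63; edgeR adjusted p = 0.895), −0.44 (−0.94 to 0.05) in the 6 libraries, and 0.01 without RA replicate 4. Both C/EBP genes are single-exon genes that share exon bases with a gene on the opposite strand, and reads were counted without strand. The partner of Cebpd, Spidr, was at 0.728 and 1.02 CPM in RA and RA+Dipy. The partner of Cebpb, Tmem189, was at 20.5 and 14.6 CPM. Reads from shared bases cannot be assigned to 1 gene, and whether they were counted or dropped was not examined.

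Of the kinase pathway genes, Sgk1 encodes a kinase close to AKT that limits muscle loss in several settings, and its start with the full response element is printed above. It measured 86.1, 139, 99.6 and 33.4 CPM in RA replicates 1 to 4 and 88.2, 105, 79.1 and 100.0 CPM in RA+Dipy replicates 1 to 4. As with Fkbp5, RA replicate 2 was highest, RA replicate 4 lowest, and the RA+Dipy mice lay between. The means were 89.4 ± 43.5 and 93.2 ± 11.8 CPM, with a log2 fold change of 0.06 (SE 0.38; 95% interval −0.78 to 0.89; edgeR adjusted p = 0.973). Without the 2 libraries it was −0.18, with an interval of −0.62 to 0.25, and without RA replicate 4 alone −0.20.

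Ddit4 (REDD1), an inhibitor of the growth kinase mTORC1 that also responds to hypoxia and energy stress, was the least abundant of the 10 in CPM. RA replicates 1 to 4 measured 9.87, 8.87, 7.81 and 2.62 CPM, and RA+Dipy replicates 1 to 4 measured 2.51, 9.93, 7.27 and 11.5 CPM. Both libraries that stood apart were low, at 31 and 38 counts. The log2 fold change was 0.09 (SE 0.49; 95% interval −0.99 to 1.18; edgeR adjusted p = 0.968) and 0.12 (−0.31 to 0.55) in the other 6. Its direction turned when RA replicate 4 was left out (−0.16), and also on dropping replicate 4 (−0.15) or replicate 2 (−0.044) of RA+Dipy.

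**Figure D2:**
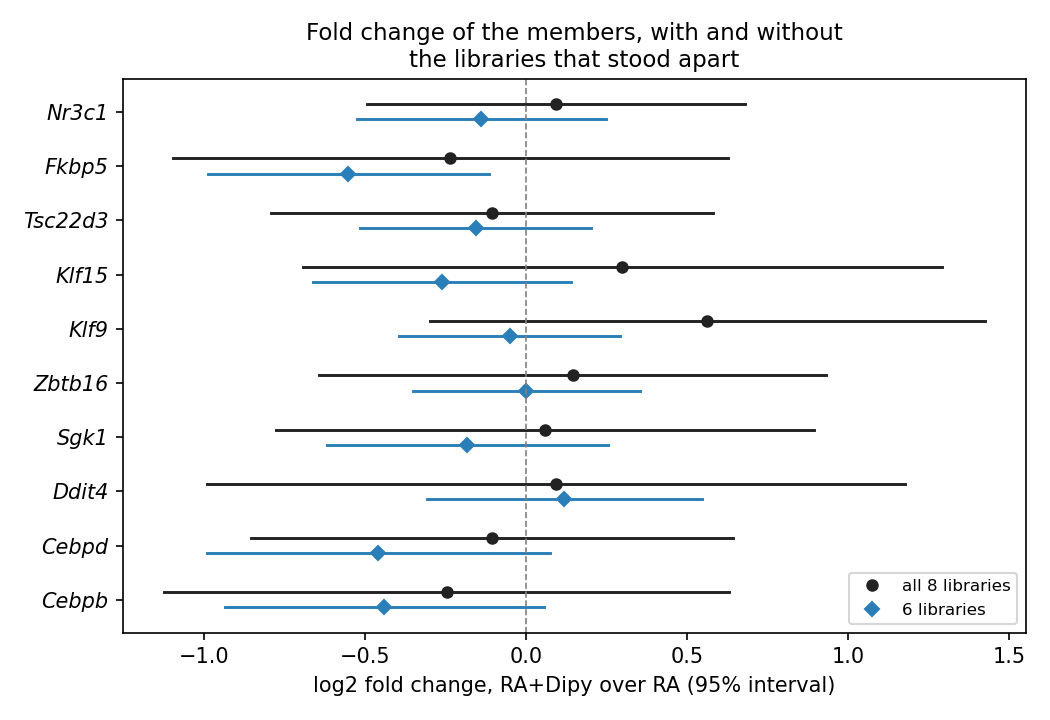
Log2 fold change of RA+Dipy over RA for the 10 genes with its 95% interval, from the edgeR fit to all 8 libraries (black circles) and without RA replicate 4 and RA+Dipy replicate 1 (blue diamonds). All 10 black intervals include 0, and of the blue ones that of Fkbp5 (−0.99 to −0.12) does not.

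In the 2 libraries that stood apart the median over the 10 genes deviated in opposite directions, but single genes often did not. In RA replicate 4 the median deviation of the 10 genes from the 8-library median was −0.61 log2 units. In RA+Dipy replicate 1 it was 0.59, and in the other 6 libraries it lay between −0.21 and 0.16. Over all genes tested the median deviation lay between −0.04 and 0.01 in every library, where TMM scaling keeps it near 0. Single genes spread widely in RA replicate 4 and RA+Dipy replicate 1, with the SDs of 1.20 and 0.81 given above. RA replicate 4 was the lowest library for 6 of the 10 genes: Klf15 (−1.93), Sgk1 (−1.49), Fkbp5 (−1.35), Cebpd (−0.65), Nr3c1 (−0.58) and Klf9 (−0.35). Ddit4 was also low there (−1.64) but lowest in RA+Dipy replicate 1 (−1.70). Yet Cebpb (1.02), Zbtb16 (0.74) and Tsc22d3 (0.67) were above the median there. RA+Dipy replicate 1 was the highest library for Klf9 (1.45), Zbtb16 (1.11), Cebpb (1.07) and Klf15 (0.75). Tsc22d3, Zbtb16 and Cebpb were above their medians in both libraries, and Sgk1 and Ddit4 below them in both. Nr3c1, Fkbp5, Klf15, Klf9 and Cebpd were below in RA replicate 4 and above in RA+Dipy replicate 1. The 10 genes did not move as 1 block in either library.

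Among the other 6 libraries, RA replicate 2 was above the 8-library median for all 10 genes and the highest of all libraries for Fkbp5, Nr3c1, Sgk1 and Cebpd. RA replicate 3 was below the median for 2 of 10 and RA replicate 1 for 8 of 10. RA+Dipy replicates 2, 3 and 4 were below it for 6, 9 and 6 of 10. The 2 high libraries among these 6 were thus both of RA.

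**Figure D3:**
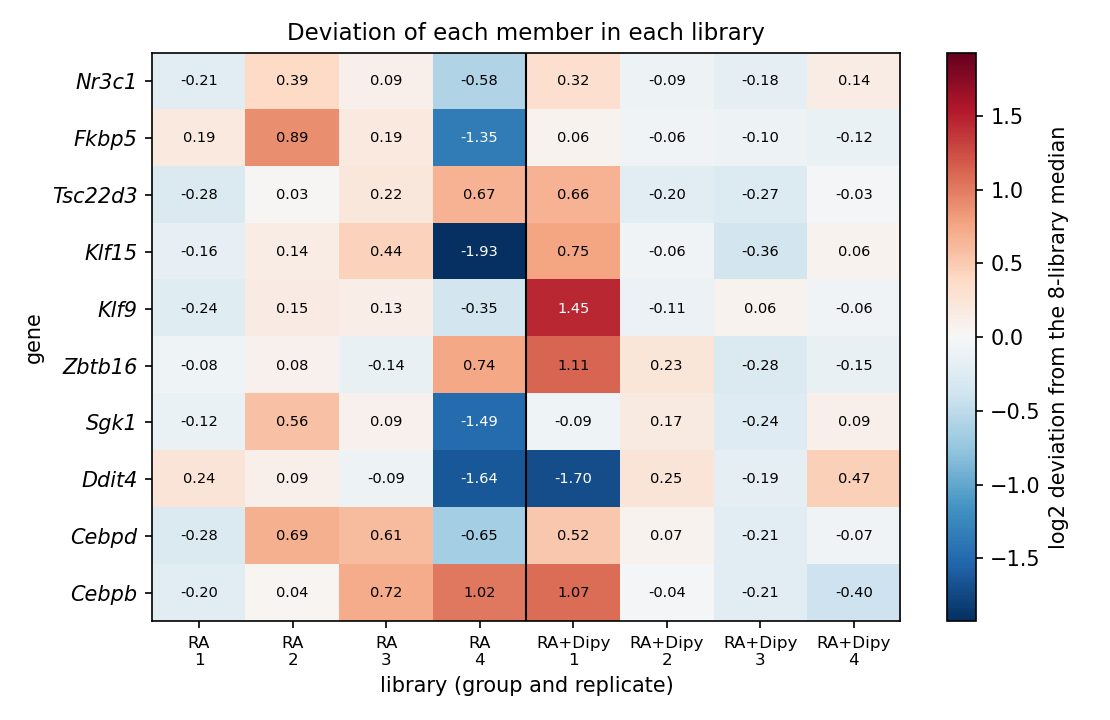
Log2 deviation of each of the 10 genes (rows) from its median over the 8 libraries (columns, group and replicate), with the value in each cell; red is above and blue below the median. RA replicate 4 holds the lowest cell (Klf15, −1.93), RA+Dipy replicate 1 the highest (Klf9, 1.45), and the other columns are paler, with their strongest cell at Fkbp5 in RA replicate 2 (0.89).

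Per kilobase of merged exon (GENCODE vM21), Tsc22d3 and Klf9 were the most abundant of the 10. In RA the levels were 36.6 ± 10.4 CPM per kilobase for Tsc22d3, 34.1 ± 5.92 for Klf9, 30.1 ± 11.7 for Cebpb and 18.2 ± 8.87 for Sgk1. The receptor followed at 8.15 ± 2.29, then Klf15 (7.78 ± 4.03), Zbtb16 (5.03 ± 1.57), Fkbp5 (4.45 ± 2.35), Ddit4 (4.15 ± 1.84) and Cebpd (3.36 ± 1.44). Neighbours in this order differed by less than the larger of their SDs, except Cebpb from Sgk1 and Sgk1 from Nr3c1. In RA+Dipy, Klf9 stood first (50.3 ± 31.4) and Tsc22d3 second (34.0 ± 11.2), and Klf15 passed Nr3c1 and Ddit4 passed Fkbp5, each by less than their spread. The choice of length matters for Fkbp5, whose merged exons span 9468 bases and whose longest transcript has 3858, which would give 10.9 CPM per kilobase in RA.

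Genes with the most similar profile were sought for Fkbp5, Klf9 and Tsc22d3 among 8829 other genes, as Pearson's r of log2 CPM over the 8 libraries, given as a description with no test. For Fkbp5 these were Bmp2k (r = 0.972), Ctps (0.954), Sntb1 (0.953), Ctxn3 (0.953) and Rictor (0.949). For Klf9 they were Rpap3 (0.996), Tcea1 (0.992), Cript (0.986), Rmdn1 (0.983) and Immt (0.983). For Tsc22d3 they were Ss18 (0.963), Foxo3 (0.952), Cars (0.949), Emc3 (0.948) and Rala (0.947). The 8 points share the 2 libraries that stood apart, and in the other 6 libraries r for these 15 genes lay between 0.709 (Cars) and 0.957 (Tcea1).

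The wider set of 30 other glucocorticoid-induced genes gave no call either. In edgeR 0 of 30 passed the adjusted threshold, 11 were higher and 19 lower in RA+Dipy, and the median was −0.10, beside 0.02 for all genes. In the 6 libraries the median was −0.04 with 14 of 30 higher, and it was 0.091 without RA replicate 4 and −0.26 without RA replicate 1. At an unadjusted p under 0.05 there was 1 gene, Cdkn1a, an inhibitor of cell division that p53 also induces. It stood at 41.6, 25.9, 21.9 and 55.9 CPM in RA and at 19.9, 19.8, 19.8 and 18.3 CPM in RA+Dipy, replicates 1 to 4, so the groups did not overlap (1.26% of all genes were lower without overlap). Its log2 fold change was −0.90 (SE 0.31; edgeR adjusted p = 0.882), and −0.62 in the 6 libraries. Next by p were Anxa1, an anti-inflammatory lipid-binding protein, at 22.9 ± 7.77 and 39.0 ± 16.3 CPM (log2 0.77, SE 0.35; 0.32 in the 6 libraries), and Pdk4, which closes pyruvate entry to the mitochondrial cycle. Pdk4 stood at 89.2, 303, 275 and 71.1 CPM in RA and 312, 413, 474 and 281 CPM in RA+Dipy (log2 1.00, SE 0.48; edgeR adjusted p = 0.882; 0.82 in the 6 libraries). Anxa1 was highest in RA+Dipy replicate 1, at 62.0 CPM.

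Muscle breakdown genes that glucocorticoids induce overlapped between the groups. The ubiquitin ligases Fbxo32 (atrogin-1) and Trim63 (MuRF1) had log2 fold changes of 0.29 (SE 0.40) and 0.12 (SE 0.26), with 6-library values of 0.26 and 0.05. The growth inhibitor Mstn stood at −0.06 (SE 0.37), the transcription factor Foxo1 at −0.19 (SE 0.36) and glutamine synthetase, Glul, at −0.25 (SE 0.25), with 6-library values of 0.04, −0.24 and −0.28. The phosphatase Dusp1 stood at 0.19 (SE 0.24; 0.12 in the 6 libraries) and the clock gene Per1, which the receptor also induces, at −0.11 (SE 0.52), or 0.71 without the 2 libraries. Mt1 and Mt2, metal-binding proteins, were extreme in RA replicate 4. Mt1 stood there at 259 CPM against 13.4 to 37.9 CPM in the other 7 libraries, and its log2 fold change of −1.83 (SE 0.92) was −0.05 without the 2 libraries. Mt2 stood at 16.3 CPM in RA replicate 4 and 11.7 CPM in RA+Dipy replicate 1 (log2 −0.42, SE 0.91; −0.33 in the 6 libraries).

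Genes that handle the hormone and its receptor had 0 of 16 tested members called, 4 higher and 12 lower, with a median of −0.11 (−0.04 in the 6 libraries, −0.22 without RA+Dipy replicate 4). The 1 gene with an unadjusted p under 0.05 was Hsd11b1, the enzyme that regenerates active glucocorticoid from its inactive form inside cells. It stood at 6.97, 8.33, 7.07 and 1.77 CPM in RA and at 10.1, 8.94, 9.70 and 20.2 CPM in RA+Dipy, replicates 1 to 4. Every RA+Dipy mouse was above every RA mouse, which 1.46% of all genes showed. The difference was 1.00 in log2 (SE 0.45; 95% interval 0.01 to 2.00; edgeR adjusted p = 0.882) and 0.80 in the 6 libraries. Hsd11b1 is known to be active in fat and stromal cells as well as muscle. Adipocyte markers summed to 1382 to 1882 CPM in RA and 1851 to 2632 CPM in RA+Dipy, with 8 of 10 higher. Car3 was the largest part of this sum in every library, at 454 to 1509 CPM in RA and 1202 to 1800 CPM in RA+Dipy. The sum therefore says little about the other adipocyte markers. Fibroblast markers summed to 2303 to 3273 and 2743 to 3962 CPM, with 7 of 9 higher, and their part in the Hsd11b1 values was not tested.

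The inactivating enzyme Hsd11b2 did not pass the filter on low counts (0.317 and 0.242 CPM). The mineralocorticoid receptor Nr3c2, which binds the same hormones, stood at 6.06 ± 2.91 and 6.35 ± 1.93 CPM (log2 0.06, SE 0.41; −0.02 in the 6 libraries). The co-chaperones Fkbp4, which helps carry the receptor to the nucleus, and Stip1 stood at −0.44 (SE 0.24) and −0.46 (SE 0.28), and at −0.32 and −0.14 without the 2 libraries. Fkbp4 measured 204 ± 31.5 and 150 ± 16.9 CPM, and its groups overlapped in RA replicate 2 (164 CPM) and RA+Dipy replicate 2 (175 CPM).

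Amino acid breakdown enzymes downstream of Klf15 had 5 of 7 lower and a median of −0.25 (−0.27 in the 6 libraries), with 0 of 7 called. Prodh, the first enzyme of proline breakdown, had a log2 fold change of −0.54 (SE 0.25), the transaminase Gpt −0.46 (SE 0.26) and Bcat2, which starts branched-chain amino acid breakdown, −0.40 (SE 0.23). Their 6-library values were −0.34, −0.30 and −0.37. Bcat2 stood at 76.7 CPM in RA replicate 2, inside the RA+Dipy range of 64.1 to 83.0 CPM, and at 108 to 110.3 CPM in the other RA mice. Each of the 3 had an edgeR adjusted p of 0.882.

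Inflammatory genes that glucocorticoids are known to repress were scarce in this muscle. Only 5 of 12 passed the filter, with 5 of 5 higher, a median of 0.48 and 0 called. In the 6 libraries 4 of 5 were higher, with a median of 0.38. The median was 0.12 without RA+Dipy replicate 3, 0.27 without RA+Dipy replicate 4, 0.26 with the replicate number as a block and 0.20 in limma-voom. Those that did not pass, Il6, Il1b, Tnf, Cxcl1, Ptgs2, Sele and Il1a, had group means from 0 to 0.390 CPM. Vcam1, an adhesion molecule of activated endothelium, was at 3.33 to 4.06 CPM in RA and 4.10 to 7.13 CPM in RA+Dipy (log2 0.52, SE 0.25; edgeR adjusted p = 0.882; 0.38 in the 6 libraries). The chemokine Ccl2 stood at 0.50 (SE 0.48; −0.08 in the 6 libraries) and the adhesion molecule Icam1 at 0.48 (SE 0.58; 0.64 in the 6 libraries). Beside these, macrophage markers summed to 135 to 324 CPM in RA and 186 to 367 CPM in RA+Dipy, with 11 of 12 higher (median 0.70, or 0.69 in the 6 libraries), 5 of them at an unadjusted p under 0.05 in edgeR and 0 called. Their part in the levels of the 10 genes, Cebpb among them, was not tested. In bulk muscle, fewer cells of a type and less RNA per cell cannot be told apart.

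Clock genes and immediate-early genes are given because daily time and handling are known to move several of the 10 genes. Of 16 clock genes 0 were called, 10 were higher, and the median was 0.09 (0.27 in the 6 libraries). Arntl (BMAL1) stood at 0.06 (SE 0.56), Nr1d1 at −0.01 (SE 0.36), Dbp at 0.44 (SE 0.54), Nr1d2 at 0.64 (SE 0.35), Cry2 at −0.51 (SE 0.32) and Per3 at −0.76 (SE 0.55). In the 6 libraries Arntl stood at −0.18, Nr1d1 at 0.32, Dbp at 0.61, Nr1d2 at 0.23, Cry2 at −0.04 and Per3 at 0.35. Per3 and Cry2 were highest in RA replicate 4, at 47.9 and 74.0 CPM, and the direction of Per3 rests on the 2 libraries. In the library where Klf9 was highest, RA+Dipy replicate 1, Dbp was the lowest of the 8 at 12.5 CPM, against 30.1 to 113 CPM elsewhere. Nr1d1, Per3, Cry2, Hlf, Ciart and Bhlhe40 were also lowest there, while Nr1d2 (133 CPM) and Clock (30.9 CPM) were highest. The remaining clock genes were at neither end there, and that library stood apart over all genes. Whether collection time differed was not tested. Of 16 immediate-early genes 0 were called and 12 were lower, with a median of −0.23 (−0.0073 in the 6 libraries, and 0.058 without RA replicate 4). Fos stood at −0.17 (SE 0.41), Ier3 at −0.79 (SE 0.43) and Egr2 at 0.77 (SE 0.42), with 6-library values of −0.18, −0.07 and 0.49. Ier3 stood at 26.1 CPM in RA replicate 4 and at 5.55 to 9.36 CPM elsewhere. Jund had an unadjusted p of 0.0460 in edgeR, with 273 CPM in RA replicate 4 against 19.0 to 50.02 CPM elsewhere. Its log2 fold change was −1.77 (SE 0.78) and −0.71 without the 2 libraries.

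**Figure D4:**
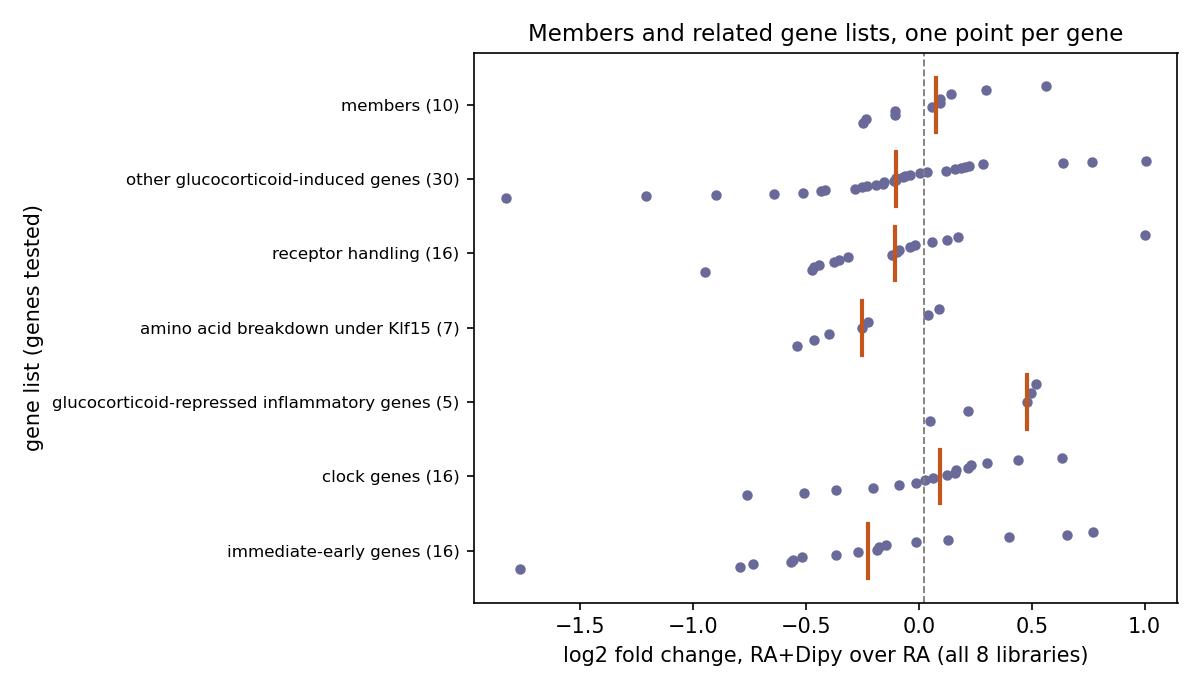
Log2 fold change of RA+Dipy over RA for each tested gene (points) of the 10 genes and of 6 related lists, with the list median (orange bar) and the median of all genes tested (dashed line, 0.02). List medians run from −0.25 (amino acid breakdown) to 0.48 (repressed inflammatory genes, 0.38 in the 6 libraries), and 0 genes in any list passed the adjusted threshold.

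Over the 6 related lists, 98 genes were named and 90 tested, 36 higher and 54 lower. None of the 90 passed the adjusted threshold in edgeR, DESeq2 or limma-voom, 3 had an unadjusted p under 0.05 in edgeR (Cdkn1a, Hsd11b1 and Jund), and 3 had groups without overlap (Cdkn1a, Hsd11b1 and Vcam1). These shares are close to those of all genes, 3.83% and 2.72%.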

How the data were processed

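Gene expression was measured by poly(A) RNA sequencing of 8 gastrocnemius muscles. The authors deposited raw read counts per gene symbol for each library. Alignment used STAR 2.7.3a on GRCm38.p6 and counting used HTSeq, per the submitters' processing notes. The design text adds trimming by fastp and counting without strand, and names no annotation release. The labels name a TruSeq library kit and the design text a directional NEBNext kit. Each table had 21859 lines without a line for unassigned reads; 24 symbols on more than 1 line were summed.

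Counts were compared with edgeR 4.0.16 (R 4.3.3): filterByExpr with a minimum count of 10, TMM, robust quasi-likelihood test with the group as sole term, Benjamini-Hochberg adjustment over all 12755 genes, threshold 0.05, two-sided. SE is the log2 fold change over the root of F, and 95% intervals use the fit's degrees of freedom. Alternatives were other scalings, no filter, a replicate block, DESeq2 1.42.0, limma 3.58.1 with and without library weights, and left-out libraries. Log2 CPM used a prior count of 2. The fit was tested on simulated data. Libraries of 1 group differed by more than sampling noise (chi-square per degree of freedom at least 29.4).

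The members and lists were chosen with earlier results of these data known. All 10 members were named, with 16 genes fixed by name, the 3 with the smallest p of each related list and the 5 most alike to each of 3 members. Markers came from fixed lists. Of these, endothelial markers summed to 355 to 496 CPM in RA and 343 to 418 CPM in RA+Dipy, with 6 of 10 higher. Schwann cell markers summed to 245 to 563 and 175 to 285 CPM, with 8 of 8 lower. Their median log2 fold change was −0.89 (−0.51 in the 6 libraries), with 3 at an unadjusted p under 0.05 in edgeR and 0 called. Gene positions are from GENCODE vM21.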

Additional observations from a re-analysis of the deposited data

Results flagged for a closer look

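In each group of 4 libraries, the gap between the farthest library and its nearest neighbour was compared with the whole range for each of the 10 genes (20 comparisons) and with Dixon's 95% critical value for 4 values. Chance flags about 1 in 20 such groups, and 2 were flagged here. Klf9 in RA+Dipy had a gap of 0.934 of the range, with replicate 1 at 469 CPM above replicates 2 to 4 at 158 to 179 CPM. Cebpb in RA+Dipy had a gap of 0.841 of the range, with the same library at 68.4 CPM above 24.6 to 31.6 CPM. RA+Dipy replicate 1 is 1 of the 2 libraries that stood apart over all genes.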

How the results depend on the processing

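With 4 mice a group, the 95% intervals of the 10 genes reached upward to a fold between 1.49 (Tsc22d3) and 2.68 (Klf9), which limits what this depth of replication can show. Under each of 16 alternatives 0 of the 10 genes and 0 genes of the related lists were called. Over all genes 0 were called except by limma-voom with library weights (133 genes, 111 higher and 22 lower), which gave weights of 0.110 to RA replicate 4 and 0.174 to RA+Dipy replicate 1. Genes at an unadjusted p under 0.05 numbered 488 in edgeR, 815 in DESeq2, 165 with the replicate block, 3638 with library weights, 1461 without the 2 libraries that stood apart, 296 when RA replicate 1 was left out and 1187 when RA replicate 2 was. Dropping RA+Dipy replicate 3 gave 184, and dropping replicate 4 of that group gave 178. Of 160 values of the 10 genes, 137 kept their direction and 23 did not. With library weights Nr3c1 stood at −0.11, Klf15 at −0.36, Zbtb16 at −0.052, Sgk1 at −0.14 and Ddit4 at −0.031. Without the 2 libraries that stood apart Nr3c1 stood at −0.14, Klf15 at −0.26, Klf9 at −0.052, Zbtb16 at −0.00057 and Sgk1 at −0.18. With each library left out in turn the values ran from −0.033 to 0.27 for Nr3c1, −0.50 to 0.11 for Fkbp5, −0.36 to 0.11 for Tsc22d3, −0.24 to 0.40 for Zbtb16, −0.20 to 0.35 for Sgk1, −0.16 to 0.38 for Ddit4, −0.29 to 0.10 for Cebpd and −0.69 to 0.0098 for Cebpb. The cause was not tested. Replicate numbers gave no sign of pairing the mice. Same-numbered libraries had correlations of −0.20, 0.11, 0.15 and −0.27 in their deviations from the group means. These values include the 2 libraries that stood apart (0.35 with each other), so they cannot settle whether the numbers mark pairs. With the number as a block 0 genes were called, with Fkbp5 at −0.05.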
